A study of Mus musculus with 8 samples.

Results

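Fatty acid synthesis and desaturation were followed through 10 enzyme genes, Acly, Acaca, Fasn, Scd1, Scd2, Elovl1, Elovl5, Elovl6, Fads1 and Fads2. They were picked by symbol from the 23284 gene symbols of the series. No rule on their measured values was used, but earlier results of these data were known when they were chosen. All 10 symbols were present. The cells were LSK cells, the lineage-negative, Sca-1-positive, c-Kit-positive fraction of mouse bone marrow that contains haematopoietic stem cells and multipotent progenitors. The mice were C57BL/6 males of 12 to 13 weeks with no engineered allele named in the labels. Each was fasted overnight for over 14 hours before injection, injected intravenously for 7 days, and sampled on day 8. The glucose group received glucose at 2 g/kg (2 libraries, A and B). The glucose with lipid group received glucose at 2 g/kg together with a 20% lipid emulsion at 6 ml/kg (2 libraries, H and I). Controls received phosphate-buffered saline, PBS (4 libraries, H, I, J and K). PBS H and I served as controls for glucose with lipid and PBS J and K for glucose, an assignment read from shared sample letters and, for glucose, made by elimination. The deposited names of the H and I libraries of both groups also end in BM. The names of A, B, J and K lack that tag, so it divides the libraries in the same way. Libraries are labelled biological replicates, with no word on how many mice went into each, so p-values measure the spread between these libraries only.

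Cells build fatty acids from citrate. ATP citrate lyase (Acly) splits citrate to cytosolic acetyl-CoA, acetyl-CoA carboxylase alpha (Acaca) turns this to malonyl-CoA, and fatty acid synthase (Fasn) joins these units into palmitate. Elongases of the Elovl family lengthen acyl chains in the endoplasmic reticulum, stearoyl-CoA desaturases (Scd) place the first double bond in saturated chains, and Fads1 and Fads2 desaturate dietary polyunsaturated fatty acids. In liver, the best studied tissue, insulin and carbohydrate raise transcription of many of these genes through SREBP-1c and ChREBP, while polyunsaturated fat lowers it.

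The promoter sequences of Acly, Fasn and Elovl5 are shown because these members gave the smallest unadjusted p-values among the members in a treatment comparison. They come from RefSeq on GRCm38.p6, 250 bases before to 50 bases after the start, written 5′ to 3′ on the strand of the gene, with CCAAT, or ATTGG for the opposite strand, in capitals. CCAAT is the core letters bound by NF-Y, a factor that works beside SREBP on lipid genes.
Acly, chr11:100527951-100528250, minus strand: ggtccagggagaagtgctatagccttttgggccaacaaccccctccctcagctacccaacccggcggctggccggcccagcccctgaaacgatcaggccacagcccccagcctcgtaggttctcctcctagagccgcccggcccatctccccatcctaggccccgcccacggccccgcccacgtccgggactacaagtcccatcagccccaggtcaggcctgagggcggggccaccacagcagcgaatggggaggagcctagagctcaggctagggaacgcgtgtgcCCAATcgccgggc
Fasn, chr11:120824498-120824797, minus strand: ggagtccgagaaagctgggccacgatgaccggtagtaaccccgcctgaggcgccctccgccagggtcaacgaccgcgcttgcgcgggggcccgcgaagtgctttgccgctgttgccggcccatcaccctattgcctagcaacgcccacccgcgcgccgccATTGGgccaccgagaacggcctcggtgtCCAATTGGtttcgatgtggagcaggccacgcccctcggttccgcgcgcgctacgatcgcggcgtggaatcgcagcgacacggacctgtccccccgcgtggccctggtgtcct
Elovl5, chr9:77917115-77917414, plus strand: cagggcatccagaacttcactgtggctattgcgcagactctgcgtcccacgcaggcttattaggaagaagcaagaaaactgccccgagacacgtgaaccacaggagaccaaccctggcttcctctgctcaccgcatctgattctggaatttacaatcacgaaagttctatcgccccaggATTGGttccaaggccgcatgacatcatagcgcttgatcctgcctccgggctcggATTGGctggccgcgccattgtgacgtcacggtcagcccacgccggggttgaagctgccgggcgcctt

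The Fasn window held 3 CCAAT matches, of which 2 overlap as CCAATTGG, Elovl5 held 2, and Acly held 1 beside 4 matches to GGGCGG, the letters bound by Sp1. Both strands were searched. RefSeq windows were found for 7 of the 10 members (Acaca, Acly, Elovl1, Elovl5, Elovl6, Fads2 and Fasn), 8 windows in all, since Elovl1 had 2. CCAAT was present for 4 of these 7 genes, against 37.4% of 32851 promoter windows of the same length, and GGGCGG for 3 of 7, against 35.7%. TCACNCCAC, a form of the sterol response element, was in the windows of 0 of 7 members, against 1.2% of all windows. Such matches are descriptions of the letters and not evidence of binding. By RefSeq gene bounds, the windows of Acaca, Fasn and Elovl1 lay inside the gene rather than at its outermost start.

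Depth was estimated, from the smallest steps between low values, at 5820000 to 8450000 fragments per library, and 11186 to 11771 genes reached 1 FPKM (fragments per kilobase of transcript, scaled to library size). LSK markers stood high in all 8 libraries, with Kit at 164.1 to 197.8 FPKM, Ly6a (Sca-1) at 295.4 to 423.6 FPKM and Cd34 at 424.1 to 567.1 FPKM. Both glucose with lipid libraries stood apart in markers of other cell types. In glucose with lipid replicate 1 (H), 11 neutrophil markers summed to 64887 FPKM, against 245.0 to 607.7 FPKM in the other 7 libraries. B-cell, macrophage, and mast and basophil marker sums were also at their highest there. Erythroid markers summed to 2235 FPKM in that library and 1223 FPKM in replicate 2 (I), against 280.4 to 641.9 FPKM in the other 6 libraries. Members and named genes whose log2 fold change after glucose with lipid turned or moved by over 1.5 times without replicate 1 are given also without it, and such values rest on replicate 2, with its raised erythroid markers. Adipocyte and stromal markers, of interest for lipid genes, summed to 25.9 FPKM in glucose with lipid replicate 1 and 7.49 to 14.0 FPKM in the other 7 libraries. Plin1 was at 0 in all 8 libraries, and Lep, Lepr and Col1a1 were below 0.5 FPKM. Pdgfrb ran at 5.19 to 11.1 FPKM, and Cxcl12 (10.5 FPKM) and Lpl (7.80 FPKM) were highest in glucose with lipid replicate 1. In such sorted bulk RNA, fewer cells that express a gene and less of its RNA per cell cannot be told apart.

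Most of the pathway was well expressed in LSK cells. FPKM is scaled to transcript length, so members are set against each other on it. The annotation behind those lengths is not given, and coverage along transcripts could not be checked. Longest transcripts in GENCODE ran from 1811 bases for Elovl1 to 10050 for Fasn. By their mean over 8 libraries, the order was Elovl1 (126.4 FPKM), Scd2 (98.2), Elovl5 (75.7), Acly (64.4), Fads1 (46.0), Fads2 (37.5), Fasn (26.1), Elovl6 (11.2), Acaca (2.18) and Scd1 (0.877 FPKM). By mean level Elovl1 lay above 96.2% of all gene symbols, Acaca above 54.5% and Scd1 above 49.4%. The libraries' ranges did not overlap between Elovl1 and Scd2, Fasn and Elovl6, or Elovl6 and Acaca. The other neighbouring pairs overlapped across libraries, although within a library Scd2 exceeded Elovl5 and Acly exceeded Fads1 in 8 of 8. Summed over the 10 members, levels were 453.1 and 478.2 FPKM after glucose and 504.4 and 453.7 FPKM after glucose with lipid, against 518.5, 463.8, 543.4 and 495.0 FPKM in PBS H, I, J and K.

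**Figure D1:**
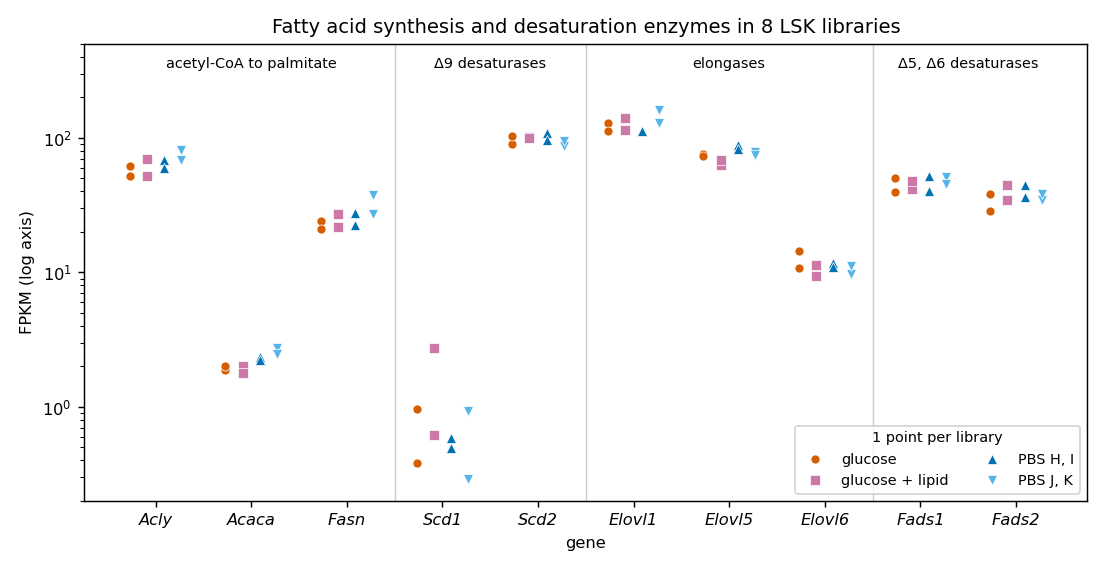
FPKM on a log axis for each of the 10 members (1 point per library) in the glucose, glucose with lipid, PBS H and I, and PBS J and K groups. Elovl1 and Scd2 lay near 100 FPKM in each group, Acaca between 1.77 and 2.75 FPKM, and Scd1 lowest apart from 1 glucose with lipid library at 2.74 FPKM.

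None of the members passed the test in any comparison. The test was limma on log2(FPKM + 1), with Benjamini-Hochberg adjustment over 11931 genes and a threshold of 0.05, and it included 9 of the 10 members. Scd1 reached 1 FPKM in a single library and was therefore not tested. The test itself called few genes of the genome. After glucose, 0.101% of genes were called (12 genes), after glucose with lipid 0.0754% (9 genes), and for all treated against all PBS libraries 0.268% (32 genes). The difference between the 2 effects called 0.0168% (2 genes), and a comparison of the PBS pairs, which the labels do not tell apart in treatment, called 0.0503% (6 genes). With 0 of 9 members called against these shares, a count of calls says little about the members, and each is given below by its values and the 95% interval of its log2 fold change.

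Acly, which supplies cytosolic acetyl-CoA (chr11:100476353-100528000, GRCm38, minus strand), was measured at 52.4 and 62.3 FPKM after glucose, against 80.8 and 68.7 FPKM in its PBS controls (J and K). Both glucose libraries lay below both PBS libraries, a log2 fold change of -0.38 (SE 0.17, interval -0.78 to 0.02, adjusted p = 0.364), and -0.17 against PBS H and I in place of J and K. With lipid added, Acly was at 70.1 and 51.8 FPKM, against 69.1 and 59.7 FPKM in PBS H and I. These overlapped, and the log2 fold change of -0.09 (SE 0.17, adjusted p = 0.888) became -0.30 without the library high in neutrophil markers.

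Acaca makes malonyl-CoA, the committed step of synthesis (chr11:84129672-84401651, plus strand). It stood at 1.88 and 2.01 FPKM after glucose, against 2.75 and 2.45 FPKM in PBS J and K. With lipid added it stood at 2.00 and 1.77 FPKM, against 2.36 and 2.25 FPKM in PBS H and I. Acaca was thus the 1 member whose 4 treated libraries all lay below its 4 PBS libraries, with means of 1.91 ± 0.11 FPKM treated and 2.45 ± 0.21 FPKM in PBS (SD, n = 4 each). Among all genes tested, 2.84% had 4 treated libraries below 4 PBS libraries and 3.55% had all 4 above. The log2 fold change of 4 against 4 was -0.24 (SE 0.14, interval -0.57 to 0.08, adjusted p = 0.538). It ran from -0.34 to -0.21 over 15 alternative settings, all below 0, though some, such as other filters or no trend, cannot change it. At this level each library held an estimated 111 to 156 fragments of Acaca. On the log2(FPKM + 1) scale a gene near 2 FPKM shows a smaller change than it has, and with a pseudocount of 0.1 FPKM the value was the lowest of that range.

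Fasn, the multifunctional synthase that makes palmitate (chr11:120805846-120824547, minus strand), was at 24.3 and 21.2 FPKM after glucose, against 37.4 and 27.2 FPKM in PBS J and K. Both glucose libraries again lay below both controls. Its log2 fold change of -0.47 (SE 0.19, interval -0.92 to -0.02) was the lowest among members in that comparison, with an unadjusted p of 0.042 and an adjusted p of 0.317. Its p-value ranked 1572 of 11931, and 14.9% of all genes had an unadjusted p under 0.05 there. The Fasn value rested in part on PBS J, without which the log2 fold change was -0.25. Against PBS H and I in place of J and K it was -0.13. With lipid added, Fasn was at 27.1 and 21.7 FPKM, against 27.7 and 22.4 FPKM in PBS H and I. Here the groups overlapped, with a log2 fold change of -0.04 (adjusted p = 0.966), which became -0.19 without the library high in neutrophil markers.

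The stearoyl-CoA desaturases were listed at very unequal levels. Scd2 (chr19:44293674-44306864, plus strand) and Scd1 (chr19:44394455-44407879, minus strand) are paralogs that lie 87.6 kb apart, and Scd1 is the form best known from liver and fat while Scd2 is the form prominent in brain. Scd2 was measured at 90.2 and 104.1 FPKM after glucose and 101.7 and 99.7 FPKM after glucose with lipid, against 109.7, 97.2, 87.6 and 95.6 FPKM in PBS H, I, J and K. Treated and control libraries overlapped throughout, and the log2 fold change of 4 against 4 was 0.02 with an interval of -0.17 to 0.21 (adjusted p = 0.940). The sign of that small value changed when libraries were scaled to equal sums without microRNA genes or when glucose replicate 2, PBS I or PBS J was left out.

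Scd1 was at 0.970 and 0.382 FPKM after glucose and 2.74 and 0.620 FPKM after glucose with lipid, against 0.490, 0.590, 0.293 and 0.935 FPKM in PBS H, I, J and K. Apart from glucose with lipid replicate 1, every library was below 1 FPKM and treated and PBS values overlapped. These levels correspond to an estimated 8 to 77 fragments per library. Windows of 50 bases shared between the transcripts made up 3.03% of Scd1 and 2.68% of Scd2. For Scd2 that share is an estimated 77 to 123 fragments per library, more than all fragments of Scd1 in each library, and how the authors' software divided them is not known. The level of Scd1, low as it is, is therefore uncertain. As listed, Scd2 stood 37.2 to 299.4 times above Scd1 within a library, and Scd1 made up 0.333% to 2.62% of their sum. In a fit with no filter on low values, Scd1 had a log2 fold change of 0.68 after glucose with lipid (SE 0.42, adjusted p = 0.664) and of 0.06 after glucose (SE 0.42, adjusted p = 1). The high Scd1 library was the library with the raised neutrophil markers, and the part of those markers in its Scd1 level was not tested. In the other glucose with lipid library Scd1 stood at 0.620 FPKM, against 0.490 and 0.590 FPKM in PBS H and I.

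Among the elongases, Elovl1, which extends saturated and monounsaturated very long chains (chr4:118428093-118432953, plus strand), was the most abundant member. It was measured at 128.3 and 111.8 FPKM after glucose, against 160.5 and 130.02 FPKM in PBS J and K. Both glucose libraries were lower (log2 fold change -0.27, SE 0.14, adjusted p = 0.425, and -0.12 without PBS J). With lipid added it was at 141.1 and 115.3 FPKM, against 112.5 and 112.0 FPKM in PBS H and I. Both treated libraries were higher (0.18, SE 0.14, adjusted p = 0.663), with 0.04 when the library high in neutrophil markers was left out. These effects had opposite signs and differed by 0.45 (SE 0.20), with an adjusted p for the difference of 0.419. The PBS pairs themselves differed at Elovl1 by -0.36 (PBS H and I over J and K, SE 0.14, unadjusted p = 0.036, adjusted p = 0.257), or -0.21 without PBS J. Between the PBS pairs, 17.2% of all genes had an unadjusted p under 0.05. With the control pairs exchanged, both treatment effects at Elovl1 changed sign, to 0.09 and -0.18. An exon of Cdc20 on the opposite strand overlaps 53 bases, 1.94% of the Elovl1 exons, and the library kit does not mark strand.

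Elovl5 extends polyunsaturated chains made by Fads2 (chr9:77917364-77984519, plus strand). After glucose with lipid it stood at 63.4 and 69.1 FPKM, against 88.1 and 82.3 FPKM in PBS H and I. The groups did not overlap, and the log2 fold change of -0.36 (SE 0.10, interval -0.58 to -0.13) had the smallest unadjusted p among the members, 0.006, with an adjusted p of 0.265. It was the 282nd smallest of 11931 p-values in a comparison where 1407 genes (11.8%) had an unadjusted p under 0.05. The value stayed below 0 in all 18 alternatives, from -0.52 to -0.21, and was -0.30 without the library high in neutrophil markers. Several of the alternatives, such as other filters or omission of a glucose library, cannot change it. The -0.21 came with the control pairs exchanged. PBS H and I over J and K gave 0.15 at Elovl5 (SE 0.10), with both H and I above both J and K. After glucose, Elovl5 was at 75.8 and 73.8 FPKM, against 78.3 and 75.0 FPKM in PBS J and K, which lay close together (log2 fold change -0.03, interval -0.26 to 0.19, adjusted p = 0.904). The difference between the 2 effects was -0.33 (SE 0.14, adjusted p = 0.402).

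Elovl6, which extends palmitate to stearate (chr3:129532355-129638495, plus strand), was the least abundant of the 3 elongases. Its levels of 10.8 and 14.5 FPKM after glucose and 9.47 and 11.4 FPKM after glucose with lipid overlapped the 11.8, 10.9, 9.80 and 11.1 FPKM of PBS H, I, J and K. The log2 fold changes were 0.24 (SE 0.18, adjusted p = 0.581) after glucose and -0.12 (SE 0.18, adjusted p = 0.856) after glucose with lipid, where the value without the library high in neutrophil markers was 0.005. The value after glucose rested on replicate 2, without which it was 0.04, against 0.44 without replicate 1.

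The desaturases of polyunsaturated fatty acids lie side by side, 81.1 kb apart in opposite orientation. Fads2 (chr19:10062765-10101746, minus strand) performs the entry step and Fads1 (chr19:10182888-10196877, plus strand) a later one. Fads2 was at 28.7 and 38.0 FPKM after glucose and 45.0 and 34.5 FPKM after glucose with lipid, against 44.7, 36.3, 34.5 and 38.6 FPKM in PBS H, I, J and K. Fads1 was at 39.8 and 50.1 FPKM after glucose and 41.7 and 47.7 FPKM after glucose with lipid, against 52.1, 40.1, 51.4 and 45.4 FPKM in PBS H, I, J and K. Treated and control ranges overlapped for both genes. With 4 against 4, the log2 fold changes were -0.09 for Fads2 (interval -0.38 to 0.21, adjusted p = 0.832) and -0.07 for Fads1 (interval -0.34 to 0.19, adjusted p = 0.843). In the glucose with lipid comparison both stood at -0.03, and without the library high in neutrophil markers at -0.22 for Fads2 and 0.06 for Fads1. For 4 against 4 the same omission gave -0.17 for Fads2 and -0.04 for Fads1, and without glucose replicate 1 both lay close to 0, at 0.0047 and 0.00032.

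**Figure D2:**
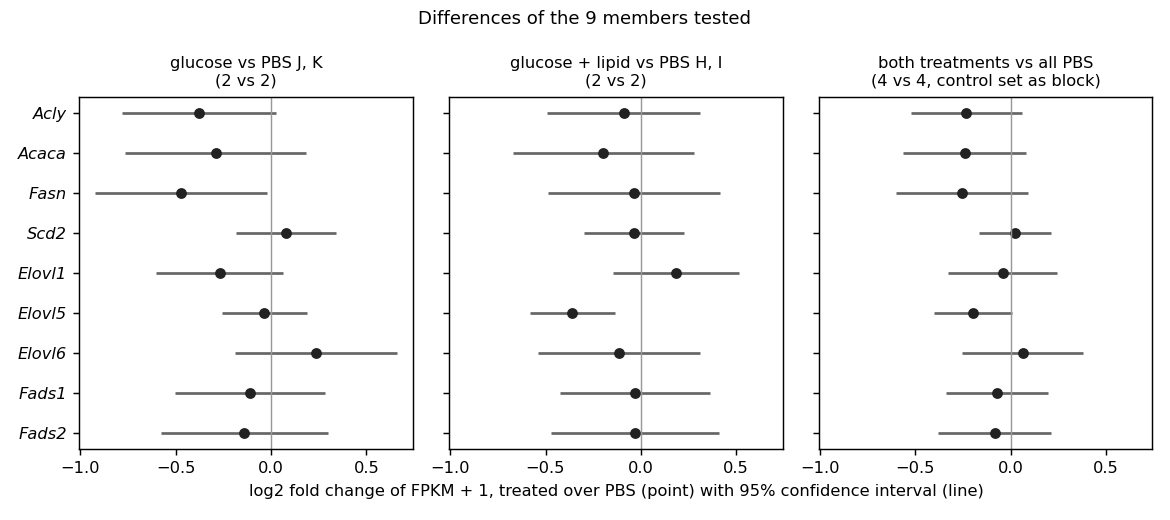
Log2 fold change of FPKM + 1, treated over PBS, with its 95% confidence interval, for the 9 members tested, in each treatment comparison. The intervals of Fasn after glucose (-0.92 to -0.02) and of Elovl5 after glucose with lipid (-0.58 to -0.13) lay below 0, and all other intervals included 0.

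Viewed as a group, 7 of 9 members had a log2 fold change below 0 after glucose, with a median of -0.14 (-0.05 without glucose replicate 1 and -0.27 without replicate 2), while 50.02% of all genes tested were below 0 and the median over all genes was -0.00014. In that comparison 4 of 9 members (Acly, Acaca, Fasn and Elovl1) had both treated libraries below both controls and 0 of 9 had both above, where 24.8% of all genes were fully below and 22.3% fully above. After glucose with lipid, 8 of 9 members and 48.2% of all genes were below 0. The members' median was -0.04, against 0.01 over all genes. Fasn, Scd2, Fads1 and Fads2 lay between -0.04 and -0.03, each with an SE larger than the size of its value. Without the library high in neutrophil markers, 6 of 9 were below 0 and the median was -0.19. Without glucose with lipid replicate 2, 5 of 9 were below 0 and the median was -0.02. Without PBS H, only 3 of 9 were below 0 and the median was 0.05. With all libraries kept, Acaca and Elovl5 were fully below their controls after glucose with lipid and Elovl1 fully above. Among all genes, 21.8% were fully below and 22.2% fully above. Between the PBS pairs, 4 of 9 members did not overlap either: Acaca and Elovl1 were lower in PBS H and I, and Scd2 and Elovl5 higher, against 25.3% of genes lower and 24.4% higher. Separation of 2 libraries from 2 was therefore common without any labelled difference in treatment. Over 4 against 4, 7 of 9 members and 51.3% of all genes were below 0. The members' median was -0.09, against -0.007 over all genes. It was -0.15 without the library high in neutrophil markers and -0.04 without glucose replicate 1.

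Other genes of the pathway were read from 5 lists, none of which had a gene past the threshold in any comparison. In other desaturases, elongases and elongation-cycle enzymes (16 listed, 9 tested), the reductase Tecr ran at 238.2 to 316.2 FPKM and Hsd17b12 at 107.4 to 146.3 FPKM, while Scd3, Scd4, Elovl3 and Elovl4 stayed below 0.5 FPKM. The list's median log2 fold change was -0.16 after glucose, 0.28 after glucose with lipid and 0.09 for 4 against 4. Its largest changes by rule were Ptplad2 (0.30) and Ptplb (-0.27) after glucose, genes of the dehydratase family of the elongation cycle, with 0.14 for Ptplad2 when the control pairs were exchanged. Ptplb rested on glucose replicate 2, without which it was -0.07, against -0.46 without replicate 1. With lipid added they were Degs1, a ceramide-forming desaturase (0.54), and Ptplad2 (0.36), and for 4 against 4 Ptpla (-0.20) and Ptplad2 (0.33). Degs1 was at 85.6 FPKM in the library high in neutrophil markers and 44.7 FPKM in the other glucose with lipid library, against 41.0 and 43.6 FPKM in PBS H and I. Its log2 fold change was 0.08 without the library at 85.6 FPKM, while Ptplad2 was 0.61 without that library and 0.12 without the other.

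Among genes that supply citrate, acetyl-CoA and NADPH (16 listed, 14 tested), the medians were -0.05 after glucose, 0.17 after glucose with lipid and 0.08 for 4 against 4. Slc25a1, the mitochondrial citrate carrier, was abundant at 120.7 to 173.4 FPKM, whereas Me1, malic enzyme, was at 0.247 to 1.08 FPKM and Acacb at 0.154 to 0.560 FPKM. Idh1, a cytosolic source of NADPH, was at 24.0 and 36.2 FPKM after glucose, against 15.1 and 22.5 FPKM in its controls J and K. With lipid it was at 43.6 and 30.9 FPKM, against 26.1 and 28.6 FPKM in PBS H and I. Its log2 fold changes were 0.65 (SE 0.26, adjusted p = 0.312) and 0.41 (SE 0.26, adjusted p = 0.574), and 0.53 for 4 against 4 (adjusted p = 0.347), while PBS H and I over J and K gave 0.54 and glucose with lipid without the library high in neutrophil markers gave 0.17. With control pairs exchanged, Idh1 after glucose was 0.11. Acss1, a mitochondrial acetyl-CoA synthetase, had 0.42 after glucose, but 0.69 without glucose replicate 1 and 0.10 with control pairs exchanged. For 4 against 4 Acss1 had 0.33, or 0.18 without the library high in neutrophil markers. Pgd, of the pentose phosphate pathway, had 0.53 after glucose with lipid, but its 115.7 FPKM came from the library high in neutrophil markers, against 52.9 FPKM in the other, and without that library the value was -0.02.

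In mitochondrial fatty acid synthesis (10 listed, 10 tested) medians were -0.16 after glucose, -0.05 after glucose with lipid and -0.12 for 4 against 4. Named by rule were Cbr4 (0.47) and the acyl carrier protein Ndufab1 (-0.52) after glucose, Ndufab1 (-0.24) and Oxsm (-0.29) after glucose with lipid, and Lipt2 (-0.26) and Ndufab1 (-0.38) for 4 against 4. PBS J weighed on the last pair, which without it were -0.11 for Lipt2 and -0.20 for Ndufab1. After glucose Ndufab1 ran from -0.89 without PBS K to -0.10 with control pairs exchanged, and PBS H and I over J and K gave -0.41. Oxsm was -0.11 without PBS I and -0.47 without PBS H. In the activation of fatty acids by acyl-CoA synthetases (11 listed, 7 tested) medians were 0.08 after glucose, 0.003 after glucose with lipid and 0.05 for 4 against 4. Acsl1 (-0.39) and Slc27a4 (-0.24) were named after glucose, with ranges over the alternatives of -0.54 to -0.23 and -0.35 to -0.13. Both were above 0 after glucose with lipid, at 0.25 and 0.34, and below 0 without the library high in neutrophil markers, at -0.19 and -0.13. For 4 against 4, Acsl3 (0.20) and Acsl5 (-0.08) were named, the second with a range of -0.11 to -0.04.

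Regulators of lipogenesis formed the last list (21 listed, 20 tested) and none was called. Their medians were 0.06 after glucose, 0.11 after glucose with lipid and 0.13 for 4 against 4. Of the 20, 4 (Insig1, Trib1, Srebf2 and Mlxip) had all 4 treated libraries above all 4 PBS libraries, against 3.55% of all genes. The list was chosen with earlier results of these data known. Insig1, which retains SREBP in the endoplasmic reticulum and is itself an SREBP target, stood at 28.3 and 33.5 FPKM after glucose and 30.6 and 38.0 FPKM after glucose with lipid, against 15.9, 19.4, 20.4 and 23.9 FPKM in PBS H, I, J and K. Its log2 fold change was 0.46 after glucose (SE 0.17, adjusted p = 0.286) and 0.92 after glucose with lipid (SE 0.17, adjusted p = 0.164). The second value was 1.07 without the library high in neutrophil markers and 0.60 with control pairs exchanged. For 4 against 4 the log2 fold change was 0.69 (SE 0.14, adjusted p = 0.143).

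Trib1, a pseudokinase linked to hepatic lipogenesis, stood at 6.80 and 6.84 FPKM after glucose and 10.8 and 7.47 FPKM after glucose with lipid, against 3.97, 4.48, 3.94 and 3.21 FPKM in PBS H, I, J and K. All treated libraries lay above all controls, with log2 fold changes of 0.78 after glucose (SE 0.21, adjusted p = 0.225), 0.94 after glucose with lipid (SE 0.21, adjusted p = 0.222) and 0.86 for 4 against 4 (SE 0.15, adjusted p = 0.0853). Without glucose with lipid replicate 2, the glucose with lipid value was 1.18 and rested on replicate 1, the library high in neutrophil markers. Without replicate 1 it was 0.70. Insig2, the other Insig protein, had 0.63 after glucose (SE 0.24, adjusted p = 0.293), but 0.11 with control pairs exchanged, and PBS H and I over J and K gave 0.52. After glucose with lipid Insig2 had -0.15 (SE 0.24, adjusted p = 0.860), with both treated libraries below both controls.

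Srebf2, the SREBP gene best known for cholesterol synthesis, was at 82.7 and 87.8 FPKM after glucose and 80.8 and 81.8 FPKM after glucose with lipid, against 71.96, 63.7, 75.8 and 73.3 FPKM in PBS H, I, J and K. Its log2 fold change for 4 against 4 was 0.23 (SE 0.07, adjusted p = 0.347). Srebf1, the gene of SREBP-1c, was at 29.7 and 25.7 FPKM after glucose and 36.8 and 36.8 FPKM after glucose with lipid, against 38.2, 31.1, 27.8 and 29.6 FPKM in PBS H, I, J and K, where treated and control libraries overlapped. Mlxipl, which encodes ChREBP, was at most 0.045 FPKM in any library, while its paralog Mlxip ran at 47.7 to 59.1 FPKM. Srebf2 and Mlxip were not named by the rule and were singled out after their values were seen.

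**Figure D3:**
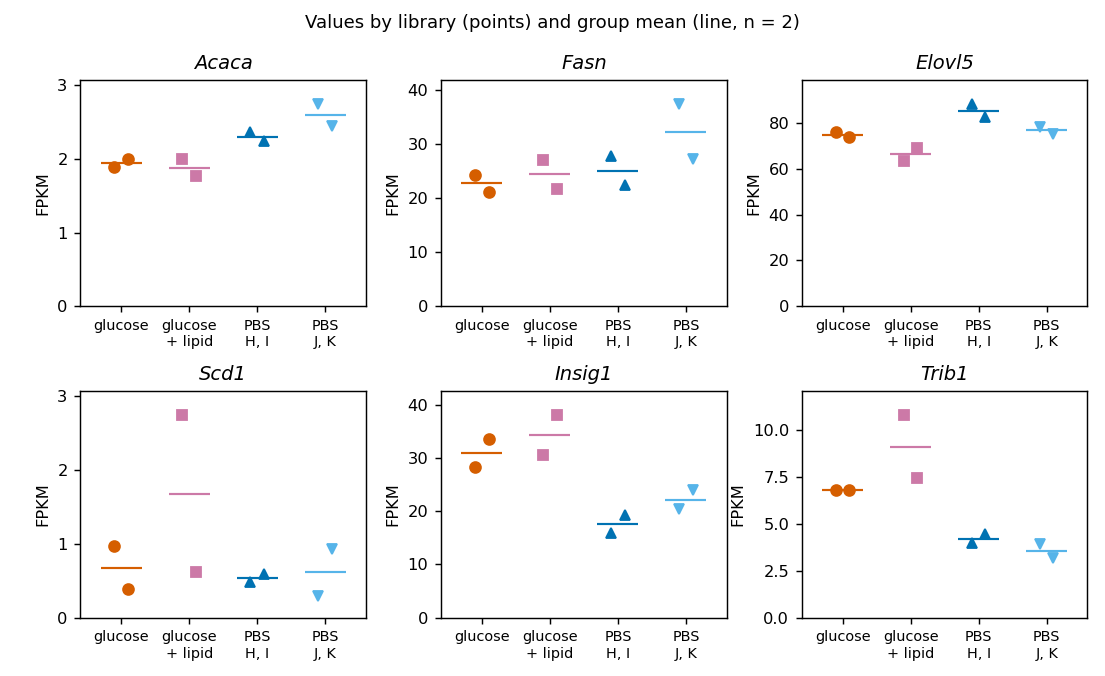
FPKM by library (points) with the group mean (line, n = 2) for Acaca, Fasn, Elovl5, Scd1, Insig1 and Trib1, each axis starting at 0. All 4 treated libraries lay below the 4 PBS libraries for Acaca and above them for Insig1 and Trib1, and Scd1 was raised in 1 glucose with lipid library, at 2.74 FPKM.

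The members that varied most over the 8 libraries were Scd1, with a range of 1.53 in log2(FPKM + 1), and Fasn, with a range of 0.79. Likeness to each was taken as the root mean square difference between profiles centred on their own mean over 8 libraries, among 9069 genes. Closest to Scd1 were Dstn (0.17), Tgfbi (0.18) and Hebp1 (0.18), where the median gene stood at 0.50. All 3 were highest in glucose with lipid replicate 1, Dstn for example at 91.3 FPKM there and at 32.9 to 41.9 FPKM in the other 7 libraries. Closest to Fasn were Psmd2, a proteasome subunit (0.04), Eif3b, a translation initiation factor subunit (0.05), and Eftud2, a splicing factor (0.05), where the median gene stood at 0.29. These were highest in PBS J, as Fasn was, with Psmd2 at 139.6 FPKM there and 80.5 to 106.8 FPKM elsewhere. Profiles over 8 libraries share each library's depth and composition, and no test was made of them.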

How the data were processed

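RNA from about 10000 sorted LSK cells was amplified with SMART-Seq HT and made into libraries with Nextera XT, per the labels' protocols. The submitters' processing notes name Cuffnorm 2.2.1, SAMtools 1.0, TopHat2 2.0.13, Bowtie2 2.2.3 and the mm10 genome. The values the authors deposited are FPKM per gene symbol, a unit read from the values and the naming of Cuffnorm; the sources used here give neither annotation nor library scaling. Counts were not used, so depth is an estimate.

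From these values log2(FPKM + 1) was computed, and the 11931 genes that reached 1 FPKM in 2 or more of 8 libraries entered limma 3.58.1 in R 4.3.3, with a mean-variance trend and 2-sided Benjamini-Hochberg adjustment at 0.05. The fit with 4 group means had 4 residual and 3.73 prior degrees of freedom, and the fit of 4 treated against 4 PBS libraries, with control set as a block, had 5 and 3.86. The procedure was run on simulated data with planted effects larger than the log2 fold change of any member here. It was not run on effects of the members' size. Positions came from GENCODE vM21, tables and figures from Python 3.11.15.

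The members, lists and tests were chosen with earlier results of these data known. Besides all members, the text names, in each treatment comparison, the 2 genes per related list with the largest absolute log2 fold change among those with a mean of at least 3 FPKM, any list gene that passed, and the 3 genes most like the 2 most variable members. Alternatives covered pseudocount, filters, scaling, trend, choice of controls, replicate block and each library left out.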

Additional observations from a re-analysis of the deposited data

How the results depend on the processing

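None of the 9 members was called under any alternative tried, in any comparison. Of 501 member values recomputed, 467 kept their direction and 34 changed sign. Many of these values could not change. The filters, the trend, the replicate block and omission of a library outside a comparison leave a log2 fold change as it is. Over all genes, the number called ran from 5 to 32 after glucose (12 as reported), from 3 to 271 after glucose with lipid (9, with 271 when its replicate 2 was left out), from 8 to 33 for 4 against 4 (32), from 2 to 141 for the difference of effects (2), and from 2 to 19 between the PBS pairs (6). All values below are log2 fold changes, and the cause of each change was not tested.

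Scaling to equal sums without microRNA genes, which took 21.6% to 27.5% of the summed FPKM, moved the median of all genes by 0.09 after glucose, -0.15 after glucose with lipid and -0.24 for the difference. Under it the members' median was -0.038 after glucose, -0.198 after glucose with lipid, -0.1531 for the difference and 0.063 between the PBS pairs, while Elovl5 after glucose became 0.0697 and Scd2 for 4 against 4 became -0.00634. With control pairs exchanged, Scd2 was -0.0910 and Elovl1 0.0935 after glucose, also with a replicate block. After glucose with lipid the exchange gave a members' median of -0.178, with Scd2 at 0.14, Elovl1 at -0.18 and Fads2 at 0.11. With all 4 PBS libraries as controls, Scd2 was -0.00494 after glucose, and Scd2 was 0.0504 and Fads2 0.0396 after glucose with lipid.

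With 1 library left out, the ranges after glucose were -0.274 to -0.053 for the members' median, -0.0214 to 0.184 for Scd2, -0.27 to 0.05 for Fads1 and -0.337 to 0.0574 for Fads2, and 0.0409 to 0.435 for Elovl6, which kept its sign. After glucose with lipid they were -0.191 to 0.051 for the median, -0.30 to 0.12 for Acly, -0.19 to 0.11 for Fasn, -0.12 to 0.05 for Scd2, -0.236 to 0.00496 for Elovl6, -0.22 to 0.15 for Fads1 and -0.22 to 0.16 for Fads2. Of related genes there, Pgd ran from -0.0232 to 1.09, Acsl1 from -0.19 to 0.69 and Slc27a4 from -0.13 to 0.81. For 4 against 4 they were -0.0300 to 0.0692 for Scd2, -0.15 to 0.06 for Elovl1, -0.05 to 0.14 for Elovl6, -0.15 to 0.00032 for Fads1 and -0.17 to 0.0047 for Fads2. The median ran from -0.0842 to 0.255 for the difference and from -0.167 to 0.106 between the PBS pairs.

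The letters H and I give glucose with lipid and its controls shared numbers. The deviations of same-lettered libraries correlated at only 0.066, and they were not treated as pairs. The raised neutrophil markers of glucose with lipid H can lower that correlation, so it cannot show whether the letters mark pairs. A replicate block on these letters called 11 genes, 0 of them members, against 9 without it, left the members' median at -0.038 and gave Elovl5 an adjusted p of 0.302. The glucose libraries share no letters with PBS J and K. Estimated depth limits Scd1, at 8 to 77 fragments per library, more than any other member.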
